A study of Mus musculus with 60 samples.

Results

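The 35 genes described here are the rows of a mouse gene count table whose symbol starts with mt-, the prefix of genes carried by the mitochondrial genome. They are 35 of 55011 genes in the table: 13 code for proteins and 22 for transfer RNAs (tRNAs). The choice used the symbol alone and no measured value. The mitochondrial ribosomal RNAs are not analysed here.

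Mitochondrial DNA is transcribed from its heavy-strand and light-strand promoters as long precursors that span many genes, and the tRNAs that lie between the mRNAs mark most of the places where the precursors are cut. The proteins made from the 13 mRNAs are core subunits of respiratory complexes I, III, IV and V, and all the other subunits are encoded in the nucleus. Brown fat is dense in mitochondria, which there release heat through the uncoupling protein Ucp1.

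The table holds 60 poly(A)-captured libraries in 19 groups of male mice aged 8 weeks, with 3007241 to 9673342 gene counts per library. Regulatory T cells (Tregs), CD4+ T cells that express Foxp3, were sorted by their Thy1.1 reporter from brown fat (BAT, n = 2), subcutaneous fat (SAT, n = 3) and spleen (n = 3) of untreated B6.Foxp3.Thy1.1 mice. Whole BAT and SAT came from B6.Foxp3.DTR mice with or without the DTR allele, a toxin receptor that makes Foxp3+ cells sensitive to diphtheria toxin. All mice of these DTR+ and DTR- groups, controls included, received the toxin (DT), and the labels give the time as D4 (4 libraries per genotype and tissue) or D3 (3 libraries each, titled PBS). Whole BAT was also taken, with 3 libraries per group, from DT-treated DTR- mice given PBS, from DT-treated DTR- and DTR+ mice given an agent the labels call CL, and from DT-treated DTR+ mice given an antibody to interferon-gamma (anti-IFNg) or an isotype antibody. Wild-type C57BL/6J mice given the anti-CD25 antibody PC61 or an isotype antibody gave 3 BAT libraries per group. The last group, 3 BAT libraries titled as wild type with PBS at 4 degrees, carries the genotype label DTR- and the strain B6.Foxp3.DTR and lists no DT. The labels do not say whether the libraries of a group came from separate animals, so the p-values measure the spread between these libraries. Whole tissue was sequenced, and fewer cells of a type and less RNA per cell cannot be told apart in it.

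The sorted Treg libraries held 364.4 to 444.1 counts of Foxp3 per 1000000 library counts (CPM), and their 7 brown adipocyte markers summed to at most 1.928 CPM. Those markers summed to between 10040 and 28640 CPM in BAT and between 276.5 and 1870 CPM in SAT. They include Cox8b and Cox7a1, which are also in the list of nuclear complex IV subunits used below. Whole-fat libraries had 0 to 29 Foxp3 counts, too few to check the removal of Tregs. Skeletal muscle markers exceeded 1000 CPM in 17 libraries, among them BAT D4 DTR- replicates 3 and 4 (3039 and 2417 CPM) and BAT D4 DTR+ replicate 1 (8223 CPM). SAT D4 DTR- replicate 3 had 158.4 CPM of T cell markers and 29 Foxp3 counts. BAT DTR- PBS replicate 3 had 69.85 CPM of T cell markers and 7 Foxp3 counts, where replicates 1 and 2 had 8.914 and 3.602 CPM. That group is the control of the CL and 4-degree comparisons.

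Not all 13 mRNAs could be counted equally. Bases 6381 to 11042 of the mitochondrial genome (mm10, chromosome M) are copied on the minus strand of chromosome 1, between positions 24611535 and 24616197, where 7 pseudogenes are annotated. The copied stretch holds 6 whole mRNA genes, mt-Co2, mt-Atp8, mt-Atp6, mt-Co3, mt-Nd3 and mt-Nd4l, and 5 tRNA genes. Copies without a differing base exist for mt-Co2 (681 aligned bases, Gm28661), mt-Atp6 (678 bases, Gm10925), mt-Co3 (783 bases, Gm28437) and mt-Nd4l (294 bases, Gm10222). Of the other 7 mRNAs, 2 lie in the stretch in part. The first 876 bases of mt-Nd4 are copied without a differing base in Gm28439, and bases 1054 to 1545 of mt-Co1 align with Gm29216 with 6 differing bases. These 6 run from T1056A to A1066T, counted from the first base of mt-Co1, and so lie at the start of the alignment. The start of the copied stretch, base 6381, is therefore uncertain. The mt-Nd3 copy Gm28438 differs from it by 1 base in 345, T3C, with positions counted from the first base of mt-Nd3. The first 60 bases of both genes are shown because the counts assigned to them moved apart in 1 group below. The differing base is in capitals, and both sequences are from mm10 with GENCODE M21 coordinates.
mt-Nd3: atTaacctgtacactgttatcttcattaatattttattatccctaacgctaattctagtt
Gm28438: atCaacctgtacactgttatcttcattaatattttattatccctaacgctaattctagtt
mt-Nd3 lies on the plus strand at chrM:9459-9806 and Gm28438 on the minus strand at chr1:24612775-24613119.

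The 6 genes of the copied stretch had medians of 11.5 (mt-Nd4l) to 181 (mt-Atp6) counts over the 60 libraries. The other 7 had medians of 2825 (mt-Nd6) to 173300 (mt-Nd1) counts. Summed over all libraries, mt-Atp6 had 11762 counts and its copy Gm10925 had 13925, and mt-Co3 had 6714 against 7118 for Gm28437. The partly copied genes had far more counts than their copies: mt-Co1 had 8600668 against 11283 for Gm29216, and mt-Nd4 had 2018504 against 2412 for Gm28439. Reads that match both places could have been dropped or placed at either, and the rule used was not stated in the sources read. Levels of the 6 wholly copied genes are therefore uncertain, and the text gives them apart from the other 7. Of the windows of 50 bases in those 7, other mm10 transcripts held 62.23% for mt-Nd4, 51.14% for mt-Co1, 8.19% for mt-Nd2 and 7.606% for mt-Nd5, and 0% for mt-Nd1, mt-Cytb and mt-Nd6. Any reads lost from these parts would lower the levels per kilobase of mt-Nd4 and mt-Co1 most, by an amount these counts do not show.

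mt-Atp8 has no annotated copy of its own, but the stretch of chromosome 1 between the copies of mt-Co2 and mt-Atp6, 233 bases, covers its place. It also overlaps mt-Atp6, so part of its reads fit both genes. The whole gene at chrM:7766-7969, plus strand, is shown with the 43 bases it shares with mt-Atp6 in capitals.
mt-Atp8: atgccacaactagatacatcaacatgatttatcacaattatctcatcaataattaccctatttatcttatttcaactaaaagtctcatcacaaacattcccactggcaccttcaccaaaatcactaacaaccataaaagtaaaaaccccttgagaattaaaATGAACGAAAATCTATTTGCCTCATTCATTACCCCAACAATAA
The tRNA genes are 59 to 75 bases long and abut or nearly abut their neighbours. For a tRNA a count therefore means only that a read was assigned to that row, and does not tell a mature tRNA from a longer RNA that spans it. mt-Td and mt-Tk had no count in any library, so 33 members were detected. Because the protocol does not keep strand, reads of mt-Nd6, the only light-strand mRNA, and reads antisense to it cannot be told apart.

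Among the 7 mRNAs not wholly copied, levels per kilobase of gene differed widely within a library, with the limit above for mt-Nd4 and mt-Co1. In BAT D4 DTR-, mt-Nd1, a complex I subunit, was the highest at 48610 ± 3507 CPM per kb (SD, n = 4). mt-Cytb, the complex III subunit cytochrome b, followed at 30610 ± 1473 CPM per kb, and mt-Co1, the catalytic subunit of complex IV, at 22280 ± 2272 CPM per kb. The other complex I genes were lower: mt-Nd5 had 9845 ± 542, mt-Nd4 6342 ± 337.7, mt-Nd2 4714 ± 654.9 and mt-Nd6 1047 ± 78.11 CPM per kb. In that group each gene's range lay apart from its neighbours' in this order. In SAT D4 DTR- the order of the first 3 was less clear, with mt-Nd1 at 11800 ± 2639, mt-Co1 at 8891 ± 1213 and mt-Cytb at 8471 ± 1861 CPM per kb (n = 4), means that differed by less than the sum of their SDs. In spleen Tregs mt-Nd1 had 2675 ± 250 and mt-Co1 2310 ± 24.21 CPM per kb (n = 3), and mt-Nd6 was again the lowest of the 7, at 60.51 ± 6.419. Within the copied stretch, levels in BAT D4 DTR- ran from 11.31 CPM per kb for mt-Nd4l to 115.5 for mt-Nd3.

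**Figure D1:**
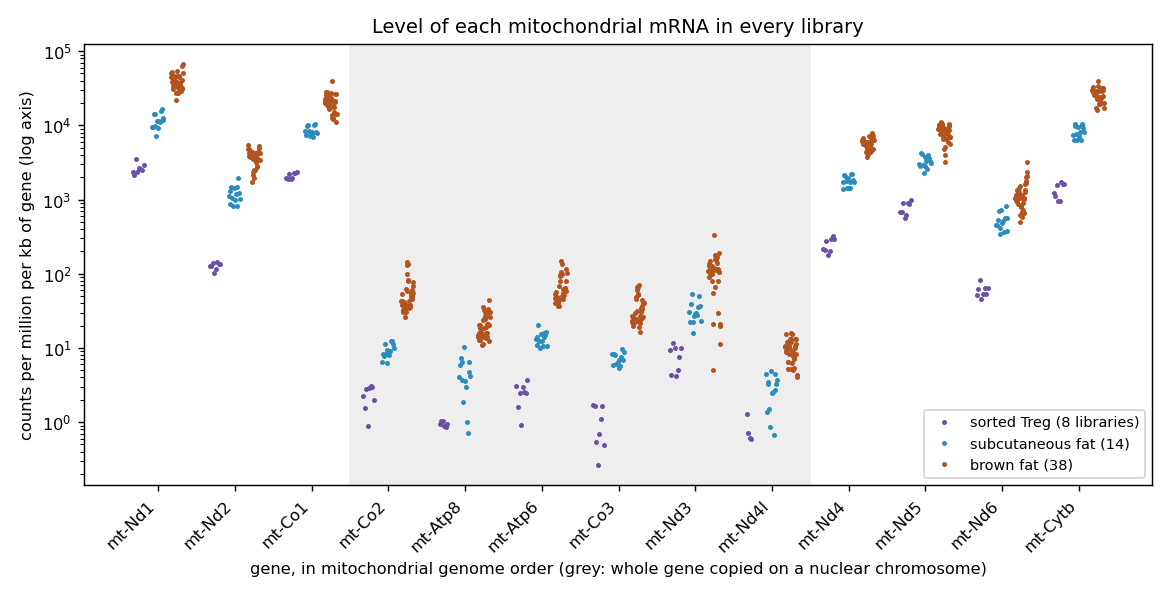
CPM per kilobase of gene, on a log axis, for the 13 mitochondrial mRNAs in genome order; each point is 1 library (8 Treg, 14 SAT, 38 BAT), grey names mark the 6 genes copied whole on chromosome 1, and zeros are not drawn. Of the 7 other genes, mt-Nd1, mt-Co1, mt-Nd4 and mt-Cytb lie higher in every BAT than in every SAT library, mt-Nd2, mt-Nd5 and mt-Nd6 overlap between BAT and SAT, and all 7 lie higher in SAT than in Treg libraries. The 6 copied genes lie far below those 7 in all 3 kinds of library.

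The share of a library's gene counts on the 13 mRNAs separated the 3 kinds of library without overlap. In the 8 Treg libraries it ran from 0.7645% to 1.073% (median 0.9181%). In the 14 SAT libraries it ran from 3.239% to 5.575% (median 4.236%), and in the 38 BAT libraries from 8.823% to 15.98% (median 12.84%). The widest 95% Wilson interval of any of these shares was 0.035 percentage points to either side, which covers counting error only. The lowest BAT library was from a CL-treated DTR- mouse, and the highest was from BAT D4 DTR-.

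**Figure D2:**
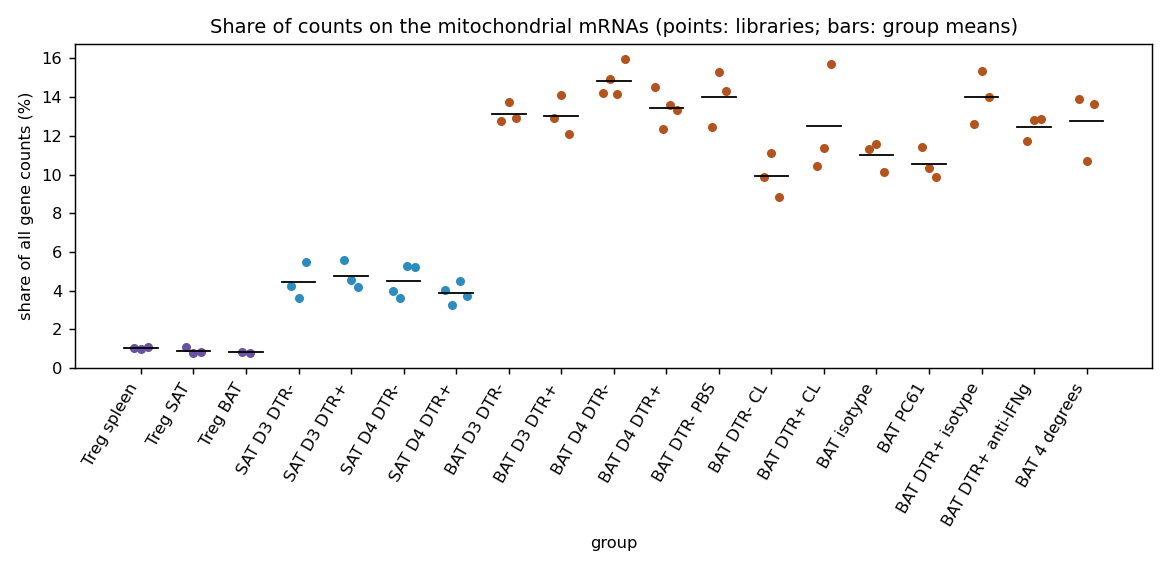
Percent of gene counts assigned to the 13 mitochondrial mRNAs; points are libraries, bars group means. Treg libraries lie near 1%, SAT libraries between 3.239% and 5.575%, and BAT libraries between 8.823% and 15.98%.

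Differences between groups were tested with edgeR's quasi-likelihood test on the whole gene table. Fold changes are log2 values on counts scaled by TMM factors, given with their standard error, and adjusted p-values are Benjamini-Hochberg values over all genes tested. CPM values are relative to library totals and carry no such scaling. A gene is said to be higher or lower where its adjusted p was under 0.05.

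Tregs from the fats and from spleen overlapped in their mitochondrial mRNA content, and 1 mRNA was called lower in fat. The 13 mRNAs took 0.837% and 0.7932% in BAT Tregs, 1.071%, 0.7645% and 0.8205% in SAT Tregs, and 1.022%, 0.9991% and 1.073% in spleen Tregs, as shares of gene counts. The spleen values were close together, and SAT replicate 1 lay among them while the other fat Tregs were lower. Of 10 mRNAs that passed the filter on low counts, 1 was lower and 0 higher in fat than in spleen Tregs, where 5.27% of 13847 genes were lower and 7.29% higher. That gene was mt-Nd4, a membrane subunit of complex I, by -0.41 ± 0.12 (adjusted p = 0.044). It had 300.6 and 285.2 CPM in BAT Tregs, 380.1, 247.7 and 281.3 in SAT Tregs, and 409.2, 451.3 and 406.4 in spleen Tregs, so fat and spleen did not overlap. With the counts of its partial copy added the difference was -0.41 (adjusted p = 0.044). The call was lost when any 1 library other than Treg SAT replicate 1 was left out (0 mRNAs called), and without that replicate 4 were called. mt-Cytb was at 1411 and 1291 CPM in BAT Tregs, 1773, 1101 and 1109 in SAT Tregs and 1962, 1826 and 1877 in spleen Tregs, with a log2 difference of -0.40 (adjusted p = 0.063). Scaled on library totals alone, 4 mRNAs were lower in fat Tregs.

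Between BAT and SAT Tregs edgeR called 0 of 10 mRNAs, 1 of them at an unadjusted p under 0.05, and DESeq2 called 0, where 0% of genes were higher and 0% lower. Of the tRNAs 2 were tested, and all these counts were 0 for them in both Treg comparisons. mt-Nd1 had the smallest p, with a log2 difference of -0.29 ± 0.13 (adjusted p = 0.56). With 2 BAT Treg libraries the precision was limited: the standard errors of the 7 mRNAs not wholly copied ran from 0.07 (mt-Co1) to 0.28 (mt-Nd6). Of 11 nuclear genes of mitochondrial DNA replication and the nucleoid, 1 was higher and 1 lower in fat than in spleen Tregs. Of 10 genes of mitochondrial transcription 0 were higher and 1 lower, while over all genes 7.29% were higher and 5.27% lower. Polg2, the accessory subunit of the mitochondrial DNA polymerase, was higher in fat than in spleen Tregs by 1.61 (adjusted p = 0.0015). Polrmt, the mitochondrial RNA polymerase, was lower by -0.67 (adjusted p = 0.022), and Ssbp1, the mitochondrial single-stranded DNA binding protein, by -0.63. B cell markers summed to 760.8 to 1066 CPM in fat and 1197 to 1281 CPM in spleen Tregs, T cell markers to 3923 to 4145 and 4837 to 5187 CPM, and endothelial markers to 120.7 to 201.2 and 231.4 to 330.6 CPM. Macrophage markers were also lower in fat Tregs without overlap, and those of adipocytes (at most 24.91 CPM) and of mammary or skin epithelium (at most 57.84 CPM) higher. The part of these in the Treg values was not tested.

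BAT held more of every mitochondrial mRNA than SAT. At D4 in DTR- mice, all 13 mRNAs were higher in BAT, where 22.6% of 13502 genes were higher and 26.3% lower. Their log2 differences ran from 1.41 for mt-Nd6 (adjusted p = 6.6e-06) to 2.82 for mt-Co2, a wholly copied gene. Their median was 2.18 against -0.06 for all genes tested. The smallest p-values were those of mt-Nd4 (2.22 ± 0.13, adjusted p = 1.7e-11), mt-Cytb (2.29 ± 0.14, adjusted p = 2.5e-11) and mt-Co1 (1.76 ± 0.11, adjusted p = 5.7e-11). mt-Cytb was at 33870, 34210, 34450 and 37510 CPM in BAT, and averaged 9690 ± 2129 CPM in SAT with a highest library of 11850 (n = 4). At D3 in DTR- mice all 13 mRNAs were again higher, where 22.8% of 13325 genes were higher and 23.6% lower, with a median of 2.16 against -0.04. mt-Nd4 differed by 2.12 ± 0.16 at D3 (adjusted p = 3.6e-09). On library totals alone 13 mRNAs at D4 and 12 at D3 were higher, the medians of the 13 were 1.74 and 1.71, and the medians of all genes moved to -0.50 and -0.49. That scaling left 1714 genes higher and 6023 lower at D4, against 3049 and 3553 with TMM factors.

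tRNA rows followed the same direction. Of 14 tested tRNAs, 13 at D4 and 14 at D3 were higher in BAT, with medians of 3.37 and 3.72. The exception at D4 was mt-Tp, a light-strand tRNA (0.32, adjusted p = 0.72). The 22 tRNAs summed to 189.3 to 280.2 CPM in BAT D4 DTR- and to 23.28 to 45.77 CPM in SAT D4 DTR-. Set against the mRNAs, that was 1.613 ± 0.2587 tRNA counts per 1000 mRNA counts in BAT and 0.7404 ± 0.1372 in SAT (SD, n = 4), and the groups did not overlap.

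Nuclear genes of the same machinery were mostly higher in BAT too. Of 73 nuclear subunits of complexes I, III, IV and V, 69 were higher and 2 lower at D4, with a median of 2.04. The complex I flavoprotein Ndufv1 was higher by 2.63 and the complex IV isoform Cox8b by 4.18, while Atp5g1, a gene for the c subunit of ATP synthase, was lower in BAT (log2 difference -1.998). All 8 tested genes of mitochondrial transcription, 17 of 23 of RNA processing and 6 of 11 of mtDNA replication and the nucleoid were higher. Tfam, which packages mitochondrial DNA and starts its transcription, was higher by 1.22. With library totals as the scale 69 subunits were still higher, and the counts for transcription and RNA processing were 6 and 13. All 7 pseudogene copies on chromosome 1 were higher in BAT as well (median 2.29).

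In BAT of DTR+ mice at D4, several mitochondrial mRNAs were lower than in DTR- mice, mt-Nd1 and mt-Cytb under every scaling tried, and the ratio of mt-Nd1 to mt-Co1 was lower in every DTR+ library. The share of counts on the 13 mRNAs was 14.23%, 14.93%, 14.16% and 15.98% in DTR- and 14.51%, 12.33%, 13.61% and 13.33% in DTR+. DTR+ replicate 1 lay inside the DTR- range, and the other DTR+ libraries lay below it. On TMM-scaled counts 6 of 13 mRNAs were lower and 0 higher, where 7.35% of 11695 genes were lower and 8.73% higher. All 13 log2 differences were negative on this scale, with a median of -0.36 against 0.02 for all genes, while that of mt-Co1 turned positive on library totals alone. The TMM factors were 0.8868 to 0.9399 in DTR- and 1.076 to 1.117 in DTR+ libraries, so the scaling itself separates the genotypes.

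mt-Nd1 stood at 42750, 49180, 44630 and 49510 CPM in DTR- and at 37280, 29220, 38830 and 32050 CPM in DTR+. Every DTR+ library was below every DTR- library, by -0.69 ± 0.10 (adjusted p = 0.00066). mt-Cytb was at 33870, 34210, 34450 and 37510 CPM in DTR- and at 31810, 30910, 28960 and 30100 CPM in DTR+, again without overlap (-0.45 ± 0.06, adjusted p = 0.00013). mt-Nd4 was at 8640, 8391, 8505 and 9420 CPM in DTR- and at 8692, 7721, 7722 and 8196 CPM in DTR+. Its groups overlapped in CPM through DTR+ replicate 1, and its log2 difference was -0.36 ± 0.07 (adjusted p = 0.0024). The other 3 mRNAs called were mt-Nd5, mt-Nd2 and, in the copied stretch, mt-Co2.

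mt-Co1 did not follow them. It was at 34860, 33010, 30780 and 39060 CPM in DTR- and at 43470, 35820, 38440 and 42910 CPM in DTR+, and its log2 difference was -0.03 ± 0.09 (adjusted p = 0.88). The ratio of mt-Nd1 to mt-Co1 counts within a library does not depend on scaling. It was 1.358 ± 0.1311 in DTR- (1.226 to 1.49) and 0.8576 ± 0.1114 in DTR+ (0.7469 to 1.01, SD, n = 4), and the genotypes did not overlap. Of the counts on the 7 mRNAs not wholly copied, mt-Nd1 took 31.4% ± 1.211 in DTR- and 25.51% ± 2.199 in DTR+, and mt-Co1 took 23.23% ± 1.487 and 29.89% ± 1.713.

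How many mRNAs were called depended on the scaling. On library totals alone only mt-Cytb (-0.20, adjusted p = 0.018) and mt-Nd1 (-0.44, adjusted p = 0.0025) were lower, and mt-Co1 changed sign to 0.22 (adjusted p = 0.055). That scaling moved the median of all genes from 0.02 to 0.27, and the genes called from 1021 higher and 859 lower to 2260 higher and 240 lower. Without the muscle-rich libraries named above, mt-Nd1 differed by -0.73 (adjusted p = 0.0038) and mt-Cytb by -0.45 (adjusted p = 0.0074).

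Of 14 tested tRNAs, 2 were lower in DTR+ BAT at D4. mt-Tm, the methionine tRNA between mt-Tq and mt-Nd2, was at 43.33, 48.83, 29.2 and 37.67 CPM in DTR- and at 17.57, 29.08, 25.04 and 26.27 CPM in DTR+. These ranges did not overlap (-0.96 ± 0.19, adjusted p = 0.0026). mt-Tl1, a leucine tRNA that ends where mt-Nd1 begins, was at 111.8, 134.2, 80.05 and 98.91 CPM in DTR- and at 69.25, 88.58, 84.74 and 82.68 CPM in DTR+. Its groups overlapped through DTR- replicate 3 (-0.64 ± 0.15, adjusted p = 0.0076, and 0.066 on library totals alone).

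**Figure D3:**
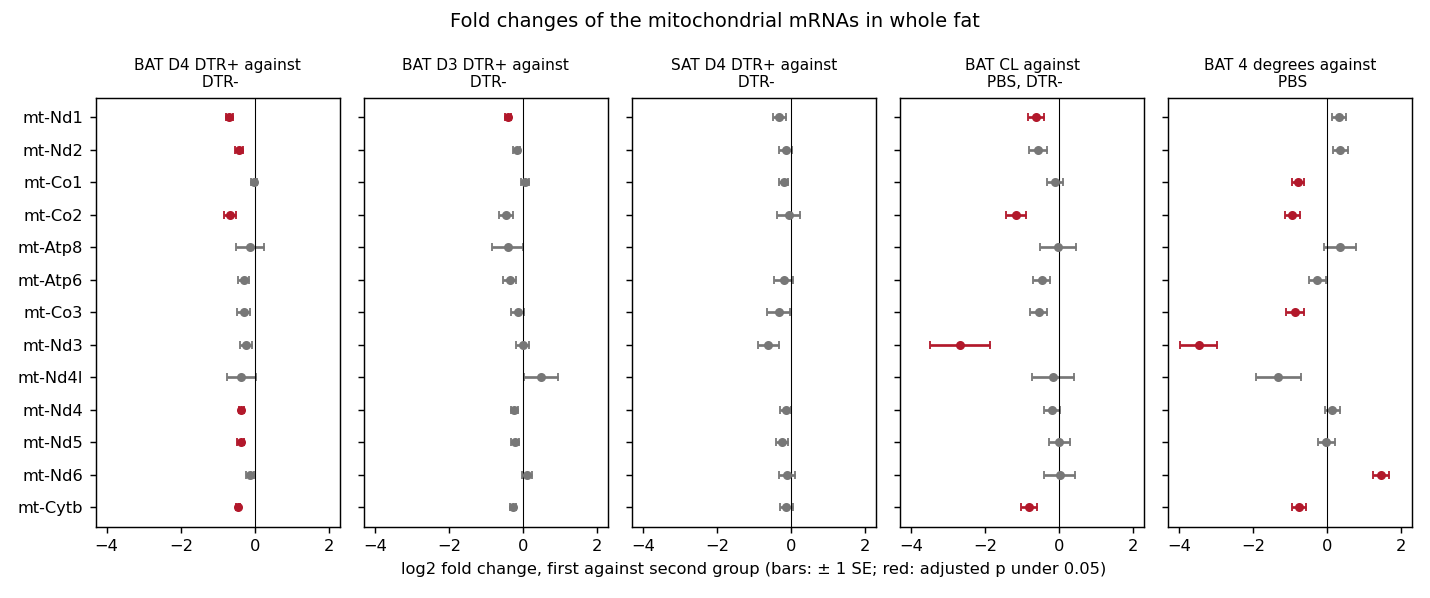
Log2 fold change on TMM-scaled counts, with bars of 1 standard error, for each mitochondrial mRNA in 5 comparisons: BAT D4 and D3 and SAT D4 DTR+ against DTR-, BAT CL against PBS, and BAT 4 degrees against PBS. Red points had an adjusted p under 0.05, and mt-Atp8 and mt-Nd4l did not pass the filter on low counts in SAT D4. In BAT D4 all 13 points lie below 0 (mt-Co1 lies at 0.22 on library totals alone), and at 4 degrees mt-Nd6 lies at 1.46 while mt-Nd3 lies at -3.47. That mt-Nd3 value leaves out the counts of its copy Gm28438, with which mt-Nd3 was not called.

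Nuclear subunits of the same complexes were lower at D4 too, in a number that depended on the scaling. In BAT on TMM-scaled counts, 61 of 72 tested nuclear subunits of the 4 complexes were lower in DTR+ and 0 were higher, with a median of -0.38. When scaled on library totals alone 11 were lower and 0 higher, with a median of -0.13 against 0.27 for all genes. By complex, on TMM-scaled counts, 33 of 36 were lower in complex I, 9 of 9 in complex III, 8 of 12 in complex IV and 11 of 15 in complex V. Ndufs1, an iron-sulfur subunit of complex I, differed by -0.62 (adjusted p = 8.9e-05), and Uqcrc2, a core subunit of complex III, by -0.58. Atp5a1, the alpha subunit of ATP synthase, differed by -0.52. These 3 were also lower on library totals alone, by -0.37, -0.32 and -0.27, while Cox5a of complex IV, at -0.44, was not (-0.19, adjusted p = 0.082). Among genes that make mitochondrial RNA, 2 of 8 transcription genes were lower, Tfb2m (-0.49), which opens the promoter with the polymerase, and Mrpl12 (-0.44), and 5 of 23 RNA processing genes were lower; none of these 7 were called on library totals alone. The 11 mtDNA replication genes had a median of -0.09. Of 10 biogenesis regulators 1 was higher and 0 lower: Ppargc1a, a coactivator of mitochondrial biogenesis, by 0.73 ± 0.19 (adjusted p = 0.021). On TMM-scaled counts 8.73% of all genes were higher and 7.35% lower. With library totals alone 4 of the 10 regulators were higher and 0 lower, with a median of 0.41 against 0.27 for all genes.

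Cell markers moved with these genes. Brown adipocyte markers summed to 13260 to 15830 CPM in DTR- and to 10040 to 11990 CPM in DTR+ BAT at D4, all 7 of them detected in both groups. With Cox8b and Cox7a1 among them, this sum shares members with the complex IV list. Macrophage markers summed to 141.8 to 337.9 CPM in DTR- and to 609.4 to 1367 CPM in DTR+, again with all 7 detected. T cell markers summed to 2.249 to 3.526 CPM in DTR- and 11.43 to 28.76 CPM in DTR+. None of these sums overlapped between genotypes, and their part in the mitochondrial differences was not tested.

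SAT at D4 gave no such call. The mRNA share was 3.992%, 3.611%, 5.264% and 5.238% in DTR- and 4.041%, 3.239%, 4.49% and 3.716% in DTR+, and the genotypes overlapped. edgeR called 0 of 11 tested mRNAs, 0 of them at an unadjusted p under 0.05, and DESeq2 called 0, where 0.0157% of 12728 genes were lower and 0.299% higher. mt-Nd3 had the smallest p (-0.62 ± 0.29, adjusted p = 0.68), at 10.66, 7.892, 13.45 and 18.63 CPM in DTR- and at 7.876, 5.537, 9.433 and 9.992 CPM in DTR+. Of the counts on the 7 mRNAs not wholly copied, mt-Nd1 took 24.85% ± 1.284 in DTR- and 23.14% ± 1.397 in DTR+ SAT, and mt-Co1 30.61% ± 1.865 and 30.94% ± 3.416 (SD, n = 4). For the 5 tested tRNAs all 3 counts of calls were also 0. The 72 tested nuclear subunits of the complexes had a median of 0.01 in SAT.

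A test of the difference between the tissues found no mRNA whose DTR effect differed. In the fit of all D4 groups edgeR called 0 of 13 mRNAs, 1 of them at an unadjusted p under 0.05, and DESeq2 called 0, where 1.05% of 13502 genes had a lower effect in BAT and 3.06% a higher one. That gene, mt-Co2, had a difference of effects of -0.64 ± 0.28 (adjusted p = 0.21). Of 73 nuclear subunits of the complexes, 8 had a lower effect in BAT and 0 a higher one, among them Ndufv3 (-0.66, adjusted p = 0.016) and Ndufa8 (-0.49, adjusted p = 0.031). None of the 73 was called on library totals alone, where Ndufv3 and Ndufa8 had adjusted p-values of 0.12 and 0.37. That scaling moved the genes called from 413 with a higher and 142 with a lower effect in BAT to 1047 and 20. Of 14 tested tRNAs edgeR called 0, 2 of them at an unadjusted p under 0.05, and DESeq2 called 0. The lower mRNAs of BAT at D4 were thus not shown to be particular to BAT.

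At D3 mt-Nd1 and mt-Tm were the members called in BAT, both lower in DTR+. mt-Nd1 was at 39930, 44080 and 39480 CPM in DTR- and at 35900, 37920 and 33640 CPM in DTR+, without overlap (-0.41 ± 0.08, adjusted p = 0.016). It was the only mRNA of 13 called, where 1.29% of 11666 genes were lower and 2.24% higher, and 5 were lower at an unadjusted p under 0.05. mt-Tm was at 45.24, 20.55 and 39.54 CPM in DTR- and at 19.19, 20.48 and 17.94 CPM in DTR+ (-1.07 ± 0.26, adjusted p = 0.044). DTR- replicate 2 of mt-Tm lay just above the highest DTR+ library. The ratio of mt-Nd1 to mt-Co1 counts was 1.38 to 1.583 in DTR- and 0.928 to 1.135 in DTR+, again without overlap. In SAT the genotypes overlapped in this ratio at D4 (0.7061 to 0.8982 in DTR-, 0.6183 to 0.9332 in DTR+). They also overlapped there at D3 (0.8582 to 0.9665 in DTR-, 0.911 to 0.9935 in DTR+).

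The D3 calls depended on single libraries. Leaving out DTR- replicate 2, DTR+ replicate 1 or DTR+ replicate 3 removed the mt-Nd1 call (adjusted p = 0.12, 0.12 and 0.11), and leaving out any library but DTR- replicate 2 removed that of mt-Tm. On library totals alone 0 mRNAs were called and mt-Nd1 differed by -0.20 (adjusted p = 0.083) and mt-Tm by -0.87 (adjusted p = 0.072), with 563 genes higher and 64 lower in place of 261 and 150. Brown adipocyte markers summed to 16580 to 19060 CPM in DTR- and 12520 to 15260 CPM in DTR+, and macrophage markers to 126 to 245.9 and 333 to 389.1 CPM. General adipocyte markers summed to 7188 to 7442 CPM in DTR- and 7611 to 8043 CPM in DTR+, and T cell markers to 1.566 to 4.176 and 4.36 to 8.655 CPM. Their part in the D3 values was not tested. Of 73 nuclear subunits 3 were lower and 0 higher at D3, among them Uqcrc2 and Ndufa11, and 0 were called on library totals alone.

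In SAT at D3 no member was called. The 13 mRNAs took 4.256%, 3.626% and 5.474% in DTR- and 5.575%, 4.538% and 4.217% in DTR+, and the genotypes overlapped. edgeR called 0 of 11 mRNAs, 0 of them at an unadjusted p under 0.05, and DESeq2 called 0, where 0% of 12596 genes were lower and 0% higher. The same 3 counts were 0 for 5 tested tRNAs. mt-Nd6 had the smallest p (0.26 ± 0.27, adjusted p = 0.98).

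In DTR- BAT, 4 mRNAs were lower and 4 tRNA rows higher with CL than with PBS. The share taken by the mRNAs was 12.48%, 15.29% and 14.29% with PBS and 9.894%, 11.1% and 8.823% with CL, and every CL library was below every PBS library. Of 13 mRNAs 4 were lower and 0 higher, where 11.8% of 12048 genes were lower and 16.3% higher. mt-Cytb was at 33460, 38640 and 45170 CPM with PBS and at 19510, 26260 and 18510 CPM with CL, without overlap (-0.82 ± 0.21, adjusted p = 0.010). mt-Nd1 was at 37050, 52120 and 43970 CPM with PBS and at 20980, 36020 and 26410 CPM with CL (-0.63 ± 0.21, adjusted p = 0.041). All CL libraries lay below the PBS libraries for mt-Nd1, with CL replicate 2 just under the lowest of them.

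The other 2 mRNAs called lie in the copied stretch. mt-Co2, a complex IV subunit, was at 90.07, 99.38 and 68.27 CPM with PBS and at 43.23, 26.21 and 40.43 CPM with CL (-1.17 ± 0.26, adjusted p = 0.0051). Its copy Gm28661 was lower too (-1.09, adjusted p = 0.011). mt-Nd3 was at 41.41, 115.5 and 39.33 CPM with PBS and at 7.316, 1.774 and 19.02 CPM with CL, a wide spread in both groups (-2.68 ± 0.80, adjusted p = 0.040). mt-Co1 was at 31630, 35050 and 34970 CPM with PBS and at 38350, 25700 and 26670 CPM with CL, and its groups overlapped.

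Of 13 tested tRNAs 4 were higher with CL and 0 lower. mt-Tv, a valine tRNA, was at 2.971, 4.026 and 2.034 CPM with PBS and at 13.97, 22.66 and 7.796 CPM with CL (2.37 ± 0.69, adjusted p = 0.021). mt-Tf, the phenylalanine tRNA at the first base of the genome, was at 2.414, 3.39 and 1.469 CPM with PBS and at 4.655, 9.263 and 9.77 CPM with CL (1.81 ± 0.54, adjusted p = 0.024). mt-Tl1 was at 64.26, 65.26 and 33.68 CPM with PBS and at 110.1, 105.4 and 85.02 CPM with CL (0.96 ± 0.30, adjusted p = 0.030). None of these 3 overlapped between groups, and the fourth, mt-Tl2, had a level too low to describe. Per 1000 mRNA counts there were 1.086 ± 0.3112 tRNA counts with PBS and 2.091 ± 0.08552 with CL (SD, n = 3). The PBS mean was the lowest of the BAT groups, and BAT D4 DTR- and BAT D3 DTR- had means of 1.613 and 2.072. In BAT D3 DTR-, mt-Tv was at 36.02, 8.139 and 11.14 CPM and mt-Tf at 10.79, 4.966 and 4.316 CPM. Both ranges overlap those with CL, and CL was not tested against another control.

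The CL calls rested on few libraries. Leaving out 1 library left 1 to 4 mRNAs and 0 to 3 tRNAs called: 1 mRNA without CL replicate 1 or without PBS replicate 3, and 2 without PBS replicate 2. The tRNAs called were 0 without CL replicate 2 or PBS replicate 3, 1 without PBS replicate 1, and 2 without CL replicate 1 or CL replicate 3. mt-Co2 stayed called in every one of these fits, all of which use the PBS group as control. The median of mt-Co2 over the 38 BAT libraries was 29.5 CPM, below every PBS library. The 6 mRNAs of the copied stretch summed to means of 289.7 CPM with PBS, 142.1 with CL and 128.9 in BAT D4 DTR-. Among nuclear lists, 8 of 10 biogenesis regulators were higher with CL, Ppargc1a by 4.89 ± 0.32 (adjusted p = 6.1e-07) and the lipid-sensing receptor Ppara by 3.21. Of 72 nuclear subunits of the complexes 1 was higher and 2 were lower, or 1 and 7 on library totals alone. Of 8 transcription genes 2 were lower and 0 higher: Tefm, the mitochondrial transcription elongation factor, by -1.99 and Mterf2 by -1.66. Of 23 RNA processing genes 5 were higher and 2 lower, and Mtpap, the mitochondrial poly(A) polymerase, was higher by 0.91. Over all genes 16.3% were higher and 11.8% lower. Brown adipocyte markers summed to 17220 to 18750 CPM with PBS and to 21750 to 25730 CPM with CL, and macrophage markers to 262.3 to 663.5 and 171.7 to 188.4 CPM. General adipocyte markers summed to 8971 to 10030 CPM with PBS and 5976 to 7980 CPM with CL, and endothelial markers to 152.9 to 291.8 and 365.8 to 409.3 CPM. None of these 4 sums overlapped, and their part in the CL values was not tested.

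DTR+ and DTR- mice that had both received CL differed in no member by the test. This comparison uses the same DTR- CL libraries as the one before. Its power over all genes was low: in simulated data it recovered 17.71% of genes with a log2 change of 1. Those genes were drawn at random from all genes tested, so the share does not give the power for the mRNAs. The mRNA share was 10.43%, 11.39% and 15.7% in DTR+, against 9.894%, 11.1% and 8.823% in DTR-. edgeR called 0 of 13 mRNAs, 3 of them at an unadjusted p under 0.05, and DESeq2 called 1, where 4.51% of 12048 genes were higher and 3.21% lower. mt-Co2 had the smallest p, 0.84 ± 0.26 (adjusted p = 0.064, and 0.038 by DESeq2), at 54.58, 56.2 and 91.71 CPM in DTR+ against the CL values above, without overlap. mt-Co1 reached 60790 CPM in DTR+ replicate 3, with 36330 and 42770 CPM in the others. The mt-Nd1 to mt-Co1 ratio was 0.5918 to 0.7271 in DTR+ and 0.5472 to 1.402 in DTR- under CL, with overlap. Of 13 tested tRNAs edgeR called 0, 1 of them at an unadjusted p under 0.05, and DESeq2 called 1. Macrophage markers summed to 883.6 to 1060 CPM in DTR+ under CL and to 171.7 to 188.4 CPM in DTR-. T cell markers (27.39 to 40.5 against 0.9976 to 5.124 CPM) and fibroblast markers (1809 to 3144 against 1649 to 1770 CPM) were apart in the same direction, and their part in the mt-Co2 values was not tested.

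PC61, which binds the interleukin-2 receptor alpha chain carried by Tregs, gave no call in wild-type BAT. The mRNAs took 11.32%, 11.58% and 10.15% with isotype and 11.42%, 10.33% and 9.879% with PC61, and the groups overlapped. edgeR called 0 of 13 mRNAs, 1 of them at an unadjusted p under 0.05, and DESeq2 called 1, where 0.486% of 11513 genes were lower and 0.165% higher. mt-Nd1 was at 44460, 42870 and 35230 CPM with isotype and at 33770, 35630 and 27900 CPM with PC61, with an overlap through isotype replicate 3 (-0.44 ± 0.11, adjusted p = 0.11, and 0.048 by DESeq2). The ratio of mt-Nd1 to mt-Co1 was 2.028 ± 0.2489 with isotype (1.796 to 2.291) and 1.42 ± 0.4117 with PC61 (1.18 to 1.895, SD, n = 3), and the groups overlapped through PC61 replicate 2. Without PC61 replicate 2 and isotype replicate 1, whose muscle markers summed to 8653 and 1934 CPM, mt-Nd1 differed by -0.46 (adjusted p = 0.25). Of 12 tested tRNAs edgeR called 0, 3 of them at an unadjusted p under 0.05, and DESeq2 called 0.

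The antibody to interferon-gamma gave no call in DTR+ BAT either. mRNA shares were 11.71%, 12.83% and 12.86% with anti-IFNg and 12.63%, 15.37% and 13.98% with isotype. edgeR called 0 of 13 mRNAs, 2 of them at an unadjusted p under 0.05, and DESeq2 called 0, where 0.508% of 12017 genes were lower and 0.0333% higher. mt-Nd6 was at 692, 832.3 and 653.9 CPM with anti-IFNg and at 877.7, 1048 and 933 CPM with isotype, without overlap, but its log2 difference of -0.35 ± 0.11 missed the threshold (adjusted p = 0.29). Of 13 tested tRNAs edgeR called 0, 2 of them at an unadjusted p under 0.05, and DESeq2 called 0.

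The 4-degree BAT libraries stood apart from all others in the balance between mitochondrial transcripts. Their mRNA share was 13.88%, 10.7% and 13.64%, with replicates 1 and 3 inside the range of the PBS-treated DTR- libraries and replicate 2 below it. Of 13 mRNAs 1 was higher and 5 were lower than in DTR- PBS, where 4.86% of 12329 genes were higher and 3.8% lower. The PBS group received DT and is also the control of the CL comparison. No other control is labelled for the 4-degree group, so housing, toxin, the genotype label and the experiment cannot be told apart.

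mt-Nd6, the complex I gene on the light strand, was at 423.4, 560.7 and 412.4 CPM with PBS and at 1644, 1073 and 1239 CPM at 4 degrees (1.46 ± 0.21, adjusted p = 0.0026). The lowest 4-degree library was above every other library of the series, where the highest had 1048 CPM. mt-Co1 went the other way, from 31630, 35050 and 34970 CPM to 21890, 16970 and 21840 CPM (-0.79 ± 0.16, adjusted p = 0.013), without overlap. mt-Cytb went from 33460, 38640 and 45170 CPM to 28510, 19870 and 23200 CPM (-0.76 ± 0.20, adjusted p = 0.036), also without overlap. mt-Nd1 was at 59860, 48830 and 64140 CPM at 4 degrees and was not called. Of the counts on the 7 mRNAs not wholly copied, mt-Nd1 took 45.31% ± 1.976 at 4 degrees against 31.58% ± 2.304 with PBS, and mt-Co1 15.9% ± 0.1222 against 24.3% ± 1.225 (SD, n = 3). The mt-Nd1 to mt-Co1 ratio was 2.85 ± 0.1035 (2.735 to 2.936), the highest of the 19 groups.

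The other 3 mRNAs lower at 4 degrees lie in the copied stretch, where assignment between gene and copy matters. mt-Nd3 fell from 41.41, 115.5 and 39.33 CPM with PBS to 6.936, 3.975 and 7.406 CPM (-3.47 ± 0.50, adjusted p = 0.0047). Its copy Gm28438, shown above with its single differing base, rose by 2.86 ± 0.32 (adjusted p = 0.00079). Gm28438 had 276, 218 and 278 counts in the 4-degree libraries and 0 to 30 in the other 57. With the counts of gene and copy added together, mt-Nd3 differed by -0.97 ± 0.42 (adjusted p = 0.21). mt-Co2 (-0.95 ± 0.20, adjusted p = 0.017) and mt-Co3 (-0.88 ± 0.24, adjusted p = 0.043), both of complex IV, were lower against PBS but reversed against other controls.

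**Figure D4:**
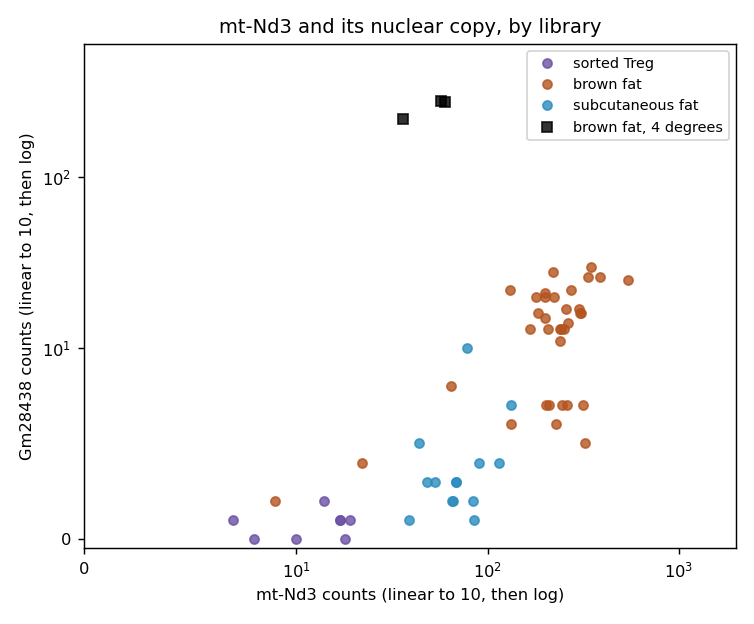
Counts assigned to mt-Nd3 (horizontal axis) and to its chromosome 1 copy Gm28438 (vertical axis), 1 point per library, with squares for the 4-degree libraries. The 3 squares have 218 to 278 counts on Gm28438, and no other library has more than 30.

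Many tRNA rows were higher at 4 degrees. All 22 summed to 869.3, 528.6 and 552.8 CPM, against 170.5, 174.4 and 107.3 CPM with PBS and at most 332.2 CPM in any of the other 57 libraries. The rise did not hold for every row: mt-Tg and mt-Tr, the tRNA genes next to mt-Nd3, had 0 counts in each 4-degree library. With PBS they had 2 to 3 and 1 per library, and in BAT D4 DTR- 10 to 18 and 4 to 6. Set against the mRNAs, there were 6.262, 4.939 and 4.052 tRNA counts per 1000 mRNA counts, and 1.086 ± 0.3112 with PBS. Of 14 tested tRNAs 6 were higher and 0 lower, and 13 of the 14 log2 differences were positive, with a median of 2.01. Of the 6, mt-Tl1 and mt-Tq had the highest CPM at 4 degrees. The sequences of 5 of these short genes are shown. They are whole genes from mm10 with GENCODE M21 coordinates, in lower case with nothing marked.
mt-Tf: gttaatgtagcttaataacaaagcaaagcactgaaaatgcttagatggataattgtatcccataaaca
mt-Tv: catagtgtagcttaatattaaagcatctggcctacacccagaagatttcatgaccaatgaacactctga
mt-Tl1: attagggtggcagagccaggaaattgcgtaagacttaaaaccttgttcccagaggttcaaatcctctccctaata
mt-Tq: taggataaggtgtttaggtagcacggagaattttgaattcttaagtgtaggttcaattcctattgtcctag
mt-Te: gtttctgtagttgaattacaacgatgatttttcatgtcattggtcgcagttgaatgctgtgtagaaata
mt-Tf (chrM:1-68), mt-Tv (chrM:1025-1093) and mt-Tl1 (chrM:2676-2750) are on the plus strand, and mt-Tl1 abuts mt-Nd1. mt-Tq (chrM:3772-3842) and mt-Te (chrM:14071-14139) are on the minus strand, and mt-Te abuts mt-Nd6.

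mt-Tl1 was at 64.26, 65.26 and 33.68 CPM with PBS and at 330.2, 206.2 and 296.8 CPM at 4 degrees (2.33 ± 0.28, adjusted p = 0.0013). mt-Tq, the glutamine tRNA, went from 19.69, 16.74 and 20.23 CPM to 168.1, 92.2 and 97.71 CPM (2.62 ± 0.28, adjusted p = 0.00064). mt-Tf went from 2.414, 3.39 and 1.469 CPM to 36.18, 21.64 and 26.25 CPM (3.54 ± 0.40, adjusted p = 0.00079). None of these 3 overlapped, and in each the lowest 4-degree library was above the highest of the other 57, which were 145.1 CPM for mt-Tl1, 49.19 for mt-Tq and 19.2 for mt-Tf. mt-Te, the glutamate tRNA, was at 23.58, 11.7 and 12.99 CPM against 5.2, 1.695 and 2.939 with PBS (2.28 ± 0.46, adjusted p = 0.013). mt-Tv was at 16.53, 8.724 and 12.08 CPM against 2.971, 4.026 and 2.034 (2.03 ± 0.44, adjusted p = 0.017). mt-Tm was at 76.64, 41.19 and 46.78 CPM against 34.91, 14.41 and 14.24 (1.37 ± 0.37, adjusted p = 0.044). These last 3 did not overlap with PBS either, but other groups reached 22.23, 36.02 and 48.83 CPM, above at least 1 of the 4-degree libraries in each case.

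**Figure D5:**
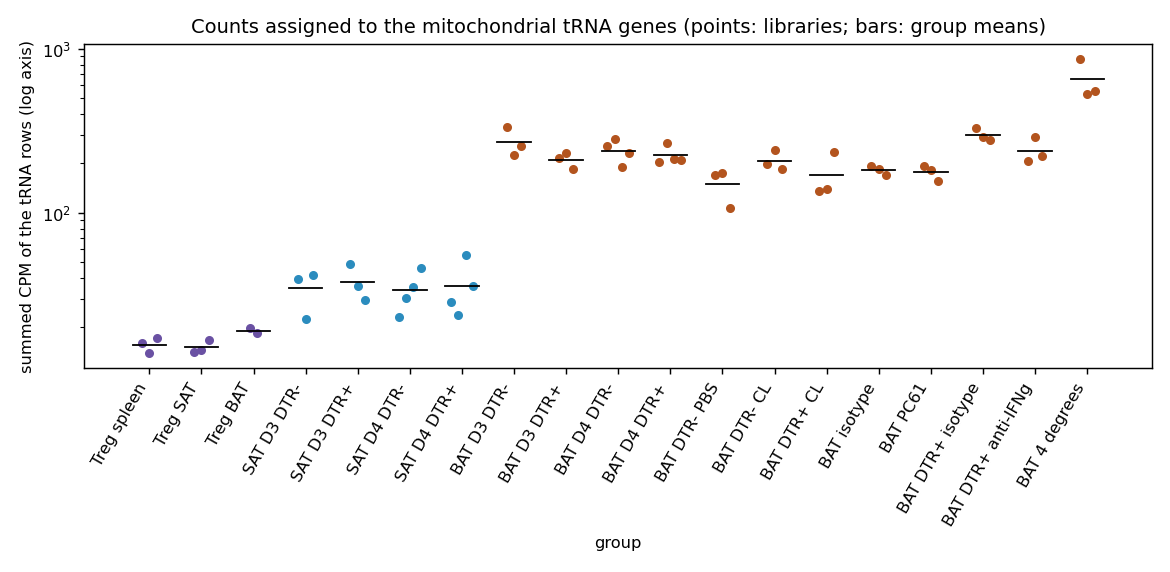
Summed CPM of the 22 mitochondrial tRNA rows, on a log axis; points are libraries. The 4-degree BAT libraries, at 528.6 to 869.3, lie above all others, SAT libraries between 22.41 and 55.38, and Treg libraries between 13.88 and 19.86.

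The choice of control changed part of this picture. Set against BAT D3 DTR-, BAT D4 DTR- and BAT isotype in turn, mt-Nd6 was higher each time (1.13, 1.15 and 1.44) and mt-Nd3 lower each time (-2.69, -2.86 and -3.13), all called. These fits took mt-Nd3 without its copy Gm28438, and a change of control does not address how reads were shared between gene and copy. mt-Tq, mt-Tf, mt-Tl1 and mt-Te were called higher against all 3 controls. mt-Co1 was lower against D3 and D4 DTR- (-0.67 and -0.90) but not against isotype (-0.10, adjusted p = 0.66), and mt-Cytb likewise (-0.57, -0.69 and -0.10). mt-Co2 turned to higher values (0.69, 0.46 and 0.72), as did mt-Co3 (0.35, 0.47 and 0.77). mt-Tv turned lower against D3 DTR- (-0.76).

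Leaving out 1 library at a time left 2 to 5 mRNAs and 3 to 7 tRNAs called at 4 degrees. Without 4-degree replicate 2 there were 3 mRNAs, without PBS replicate 2 there were 2, and without 4-degree replicate 1 there were 3 tRNAs. mt-Nd6, mt-Nd3, mt-Tq, mt-Tf and mt-Tl1 stayed called in every one of these fits. For mt-Nd3 this holds for its own counts only: with those of its copy Gm28438 added it was not called, as given above.

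Nuclear genes of the complexes did not shift one way at 4 degrees: 5 of 72 tested subunits were higher and 8 lower, or 13 and 8 on library totals alone. Of 23 RNA processing genes 3 were higher and 1 lower, with a median of 0.02, and of 9 transcription genes 0 were higher and 1, Mterf4, lower. Over all genes 4.86% were higher and 3.8% lower. Grsf1, an RNA-binding protein of mitochondrial RNA granules, was higher by 0.85 (adjusted p = 0.0066). Hsd17b10, a subunit of the mitochondrial RNase P that cuts tRNAs at their 5′ end, was lower by -0.86, and Mterf4 by -0.93. Of 10 biogenesis regulators 1 was higher and 0 lower, Ppargc1a by 1.11 (adjusted p = 0.013). Brown adipocyte markers summed to 27200 to 28640 CPM at 4 degrees and 17220 to 18750 CPM with PBS, and endothelial markers to 467.5 to 626.8 and 152.9 to 291.8 CPM. Neither overlapped, and their part in these values was not tested. Muscle markers reached at most 108.5 CPM at 4 degrees.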

How the data were processed

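Poly(A) RNA of sorted Tregs and whole fat was made into Smart-seq2 and Nextera XT libraries, per the labels' protocols. The submitters' processing notes name STAR 2.7.3a, featureCounts and mm10. The authors deposited 1 table of whole-number counts per gene for 60 libraries, unnormalized, with 3007241 to 9673342 counts each. How reads with several matches were treated, and whether strand was used, the sources read do not state.

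Members were rows with symbols starting with mt-. Members, lists and comparisons were chosen with earlier results of these data known. CPM values are counts per 1000000 of a library's total. Each comparison was fitted to all genes with edgeR 4.0.16 (filterByExpr, TMM, robust quasi-likelihood test, R 4.3.3, limma 3.58.1), and p-values were Benjamini-Hochberg adjusted, threshold 0.05. DESeq2 1.42.0 was an alternative, with other scalings, filters, fits, controls and left-out libraries. Library totals alone, counts of nuclear copies added and muscle-rich or immune-rich libraries left out were added after seeing the data. The text names all called members of a comparison up to 6, and otherwise the 3 mRNAs with the smallest p, any called in the opposite direction and called tRNAs of at least 5 CPM; with none called, the mRNA with the smallest p. In simulated data, a log2 change of 1 was recovered in 17.17% to 63.92% of changed genes over 14 comparisons, and one of 2 in 61.05% to 92.71%. The changed genes were drawn at random from all genes tested and were not matched to the members in level. No libraries of the same group were duplicates: 67 replicate pairs had chi-square per degree of freedom of 7.022 to 37.55. Pairs from different groups were not compared. The pairs of mitochondrial gene and chromosome 1 copy were fixed in advance from general knowledge and aligned without gaps. Sequence windows of 50 bases were matched between mm10 transcripts only for the shares of windows held by other transcripts. Same-numbered libraries did not meet the rule for pairing, a correlation over 0.1 in every pair.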

Additional observations from a re-analysis of the deposited data

Results flagged for a closer look

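A library was flagged in a group of 4 where its distance from the nearest other library took a share of the group's range above Dixon's 95% limit. This was checked for 64 sets of values, in 4 groups of 4, and chance flags about 1 in 20. It flagged 2. mt-Cytb stood at 37510 CPM in BAT D4 DTR- replicate 4, while the other 3 libraries of that group were at 33870 to 34450 CPM (0.841 of the range). The summed tRNA level was 266.9 CPM in BAT D4 DTR+ replicate 2, while the others were at 203.1 to 213 CPM (0.845 of the range).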

How the results depend on the processing

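Counts of mitochondrial mRNAs called, where they moved by over 1.5 times, were these. For Treg fat against spleen (1 as reported), 2 with both fats as 1 group, 2 by DESeq2, 3 with no filter, 4 on library totals alone and 0 to 4 with 1 library left out. For BAT D4 (6), 3 with all whole-tissue libraries in 1 fit and 2 on library totals alone. For BAT D3 (1), 0 in the all-library fit, 2 with no filter, 0 on library totals alone and 0 to 1 with 1 library left out; the 1 tRNA called there became 0 in the all-library fit, on library totals alone and with a replicate block, 2 by DESeq2 and with no filter, and 0 to 2 with 1 library left out. For BAT CL against PBS (4), 1 to 4 with 1 library left out, and 4 tRNAs became 2 on library totals alone and 0 to 3 with 1 library left out. For DTR+ under CL (0), 1 by DESeq2 and 2 with no filter; for PC61 (0), 1 by DESeq2 and 1 with no filter; for anti-IFNg (0), 2 with no filter. For 4 degrees against PBS, 6 mRNAs became 2 with a replicate block and 2 to 5 with 1 library left out, and 6 tRNAs became 11 in the all-library fit and 3 to 7 with 1 library left out. The cause was not tested. Log2 differences that changed sign with 1 library left out were those of mt-Nd6, Treg BAT against SAT (-0.19 to 0.25), mt-Co1, BAT D4 (-0.11 to 0.033), mt-Nd6, SAT D3 (-0.038 to 0.49) and mt-Nd6, BAT PC61 (-0.20 to 0.10). On library totals alone mt-Co1, BAT D4 became 0.22 and mt-Nd6, BAT PC61 0.046. At 4 degrees other controls gave mt-Co2 0.69, 0.46 and 0.72, mt-Co3 0.35, 0.47 and 0.77, and mt-Tv -0.76. Same-numbered libraries did not meet the rule for pairing (every correlation over 0.1). In SAT D4 (DTR- with DTR+, r 0.060 to 0.09998) and in D3 DTR+ (BAT with SAT, r 0.039 to 0.116) each library correlated best with its own number, 4 of 4 and 3 of 3, a hint from the data only. With the replicate block 1 mRNA was called for Treg fat against spleen, 6 for BAT D4 and 4 for CL. No block could be fitted for anti-IFNg.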
